A study of Homo sapiens with 2 samples.

Results

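Aminoacyl-tRNA synthetases join each amino acid to its transfer RNA, the step that supplies the ribosome with building blocks. The members described here are the transcripts of 36 named synthetase genes, 20 for the cytosol and 16 for mitochondria, and a member was taken wherever the platform annotation gave a row of the array that 1 gene symbol. Of the 36 genes 35 had such a row, among 22411 genes with a row of their own on the array, and 34 reached the floor described below.

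The cells were MHCC97H, an established human line of hepatocellular carcinoma, grown in DMEM with 10% serum. GP73, a Golgi membrane protein encoded by GOLM1, was knocked down in 1 sample, titled MHCC97HshGP73, and the other, titled MHCC97Hshv, served as the control and is described as expressing GP73 at a high level. The stated question was which genes act with or after GP73 in the growth of liver cancer cells. Each group was 1 array made from 100 ng of total RNA, so there was no replicate, no error between cultures and no test between the conditions. The labels do not say whether the knockdown cells were a clone or a pool.

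Cytosolic synthetases serve the ribosomes of the cytoplasm, and several of them are held together in a multi-synthetase complex. Mitochondria use a second set, encoded in the nucleus and imported, to translate the few proteins of the mitochondrial genome. Many cytosolic synthetase genes are known, from work in mouse fibroblasts, to be targets of ATF4, the transcription factor that responds to amino acid shortage and to phosphorylation of the initiation factor eIF2 alpha. ATF4 binds a composite element of which one form is TGATGCAA.

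The values are log2 signals as the authors deposited them. Where a gene has a pair of signals, that of the control array comes first, and each difference is knockdown minus control. A gene counted as measured when the higher of its signals reached 5.84, the median of that quantity over all genes, which left 11206 genes. GOLM1 itself was at 9.13 and 7.46, so the targeted transcript was 3.18-fold lower under knockdown. Over the measured genes the median difference was -0.0063 and the SD between genes was 0.26. As a scale for the spread between rows, 99 genes had exactly 2 separate rows above the floor. The SD of the knockdown minus control difference between rows of a gene was 0.133, which leaves out all variation between cultures and hybridisations. Of the hepatocyte lineage markers with a row 5 of 8 were measured, with the keratin KRT8 at 10.94 and 10.84, while ALB, at 4.35 and 3.76, and AFP, at 2.56 in both arrays, lay below the floor. Of the measured hepatocyte markers APOB had the largest difference, -0.47. Measured markers numbered 1 of 5 for fibroblasts, 2 of 5 for endothelium and 0 of 4 for leukocytes. COL1A1 stood at 0.17, KDR at -0.06 and PECAM1 at -0.72, and the part of these cell types in the results was not tested. In bulk RNA, fewer cells of a type and less RNA per cell cannot be told apart.

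Promoter windows from RefSeq, build GRCh38.p14, matched 30 of the 36 genes, and the element TGATGNAA was searched on both strands of each 300-base window. For each of the 30 genes 1 window was kept, the first by start coordinate, so any other start sites were not searched. The element lay in 4 of 16 cytosolic promoters, in 1 of 14 mitochondrial ones and in 3.62% of 35116 promoters of that length. That last share counts every window, also where a gene has several. The 4 cytosolic genes were AARS1, IARS1, MARS1 and NARS1, and in each the match read TGATGCAA or its reverse complement TTGCATCA. All 4 had lower signal in the knockdown array, as did 17 of 19 measured cytosolic genes and 50.5% of all measured genes. A link between the element and the differences was not tested. These 4 promoters are shown because they carry the element known for ATF4. Each stretch runs from 200 bases before to 30 bases after the start site, on the strand of the gene, with searched motifs in capitals. The windows are chr16:70289477-70289706, minus strand, for AARS1, chr9:92293668-92293897, minus strand, for IARS1, chr12:57487868-57488097, plus strand, for MARS1, and chr18:57621807-57622036, minus strand, for NARS1.
AARS1: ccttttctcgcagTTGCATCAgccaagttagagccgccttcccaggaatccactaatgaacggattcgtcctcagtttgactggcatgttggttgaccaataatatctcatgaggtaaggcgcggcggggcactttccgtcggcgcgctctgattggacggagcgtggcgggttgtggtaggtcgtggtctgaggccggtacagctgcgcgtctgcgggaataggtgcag
IARS1: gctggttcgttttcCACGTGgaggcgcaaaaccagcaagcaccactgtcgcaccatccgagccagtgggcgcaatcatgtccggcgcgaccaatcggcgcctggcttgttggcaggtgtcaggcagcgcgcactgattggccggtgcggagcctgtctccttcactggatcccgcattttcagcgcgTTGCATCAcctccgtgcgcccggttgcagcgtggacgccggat
MARS1: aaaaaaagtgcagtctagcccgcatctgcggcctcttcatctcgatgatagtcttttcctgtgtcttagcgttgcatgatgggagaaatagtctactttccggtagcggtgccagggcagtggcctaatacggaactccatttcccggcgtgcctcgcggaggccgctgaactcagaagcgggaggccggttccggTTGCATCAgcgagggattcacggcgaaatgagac
NARS1: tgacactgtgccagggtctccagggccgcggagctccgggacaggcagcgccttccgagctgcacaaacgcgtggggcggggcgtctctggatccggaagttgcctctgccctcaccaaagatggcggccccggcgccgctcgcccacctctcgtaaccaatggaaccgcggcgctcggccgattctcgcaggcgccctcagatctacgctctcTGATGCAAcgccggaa

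The match began 187 bases before the start site in AARS1, 13 before in IARS1, 4 before in MARS1 and 14 after in NARS1. The first capitals in IARS1 are instead the E-box CACGTG, the site of MYC and related factors. E-boxes lay in 1 of 16 cytosolic and 2 of 14 mitochondrial promoters, against 7.26% of all. The mitochondrial promoter with the element was that of YARS2, whose match read TGATGGAA. MARS2 and IARS2 are shown because they had the lowest differences of the mitochondrial enzymes. MARS2 held an E-box that began 11 bases before the start site, and IARS2 held neither motif. Their windows are chr2:197705169-197705398, plus strand, and chr1:220093932-220094161, plus strand.
MARS2: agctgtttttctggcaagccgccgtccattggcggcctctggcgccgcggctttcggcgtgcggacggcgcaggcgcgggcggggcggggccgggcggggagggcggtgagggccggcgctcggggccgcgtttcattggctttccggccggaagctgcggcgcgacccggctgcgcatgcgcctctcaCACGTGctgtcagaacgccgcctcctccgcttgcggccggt
IARS2: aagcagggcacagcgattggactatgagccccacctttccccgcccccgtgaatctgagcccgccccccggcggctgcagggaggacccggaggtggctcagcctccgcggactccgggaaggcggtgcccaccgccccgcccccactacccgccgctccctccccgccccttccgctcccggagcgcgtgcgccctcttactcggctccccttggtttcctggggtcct

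A match is a stretch of letters and was not tested for binding. The remaining 12 cytosolic promoters searched held no TGATGNAA in this window, among them EPRS1 and SARS1. LARS1, VARS1 and YARS1 were among the genes without a matched window and were not searched.

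Both sets of synthetase transcripts were mostly lower in the knockdown array. Of the 19 cytosolic genes measured, 17 were lower, 1 was higher and QARS1 was equal, with a median difference of -0.31 and a range from -0.57 to 0.03. Of 15 mitochondrial genes measured, 13 were lower and 2 higher, with a median of -0.14 and a range from -0.83 to 0.10. Among all measured genes 50.5% were lower, and among protein-coding ones 51.6%. With quantile normalisation 16 cytosolic and 13 mitochondrial genes were lower, against 49.6% of measured genes, and with median centring 19 and 14 were, against 64.2%. Under all 4 scalings, the fourth being removal of the trend over signal level, 16 of 19 cytosolic and 12 of 15 mitochondrial genes were lower. The share of all measured genes lower under all 4 was not computed, and with the trend removed alone it was 48.9%. These scalings rework the same arrays and are not separate evidence. The differences were small for single genes. At 1.5-fold 2 of the 34 synthetases were lower, IARS2 and MARS2, and 0 were higher, against 1.55% and 1.08% of all measured genes. At 1.3-fold, a threshold added after the values had been seen, 5 cytosolic and 4 mitochondrial genes were lower and 0 were higher, where 7.64% of measured genes were lower and 5.1% higher. No synthetase was 2-fold different, beside 0.134% of measured genes 2-fold lower and 0.161% higher.

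**Figure D1:**
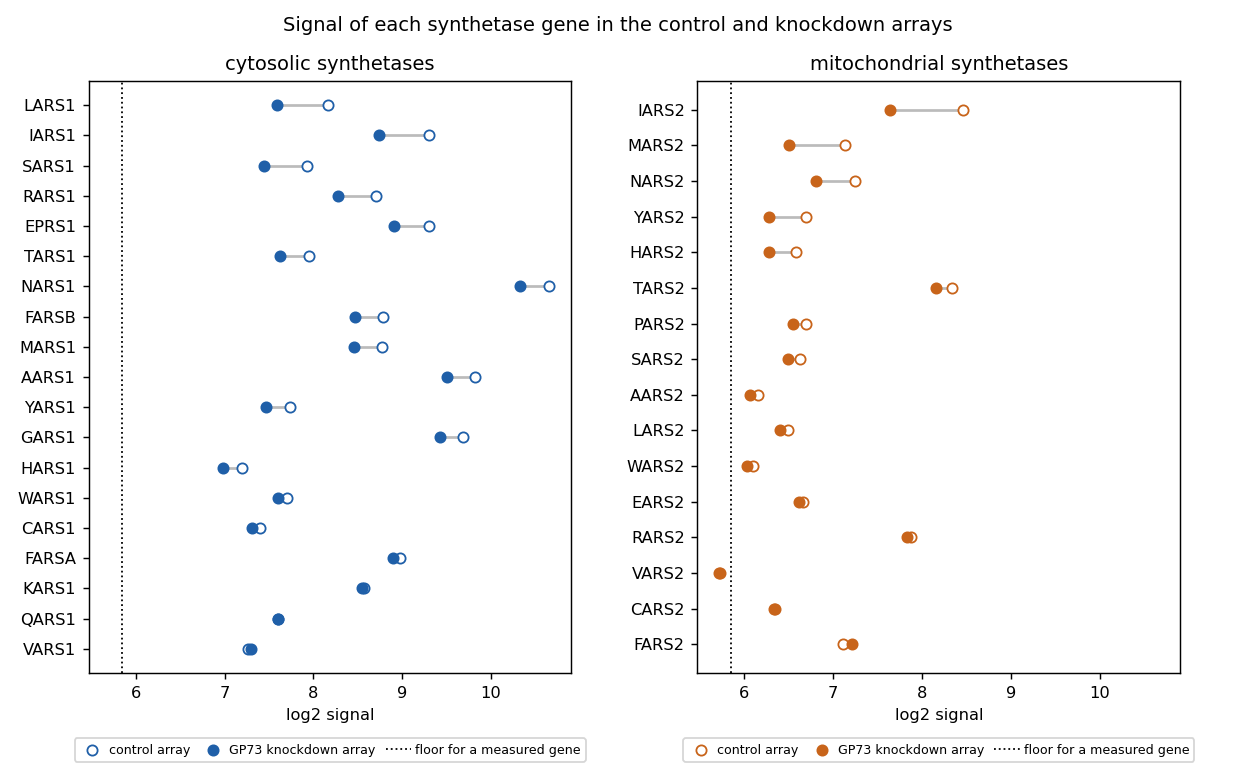
Log2 signal of each synthetase gene (x axis) in the control array (open points) and the GP73 knockdown array (filled points), cytosolic on the left and mitochondrial on the right, ordered by difference. The dotted line is the floor of 5.84, and each point is 1 array. The knockdown point lies to the left for 17 of 19 cytosolic genes, where 50.5% of all measured genes were lower. IARS2 has the widest gap.

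**Figure D2:**
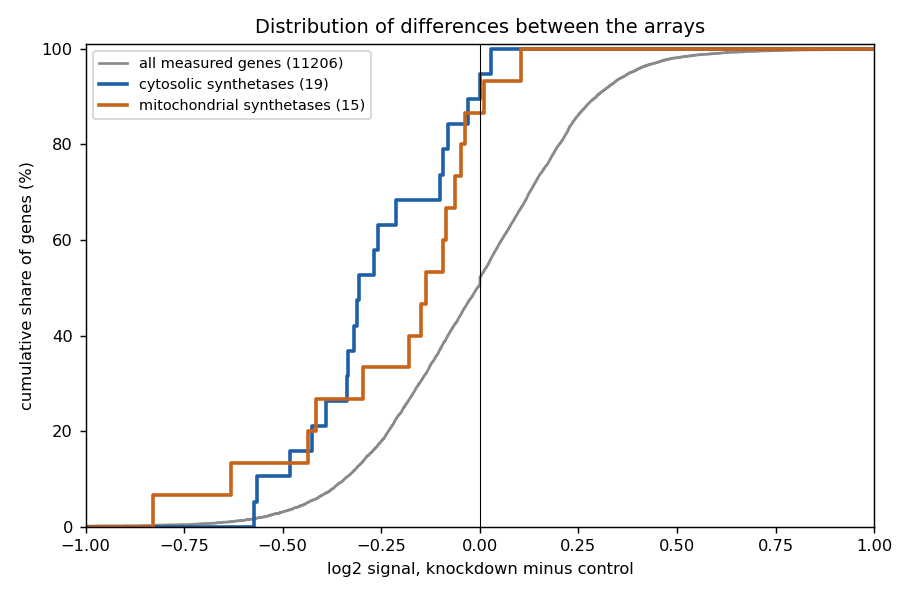
Cumulative share of genes (y axis, percent) against the log2 difference, knockdown minus control (x axis), for all 11206 measured genes, 19 cytosolic and 15 mitochondrial synthetases. Both synthetase curves lie to the left of the curve of all genes over most of the range, with medians of -0.31 and -0.14 against -0.0063.

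The multi-synthetase complex holds 8 of the listed cytosolic enzymes, of which 7 were measured. Of these 6 were lower, against 50.5% of all measured genes, with a median of -0.39. After subtraction of the trend over signal level 5 of the 7 were lower, against 48.9%. LARS1, which charges leucine and is also known as a leucine sensor for mTORC1, was at 8.17 and 7.59. It had the lowest difference of the cytosolic set, -0.57, or 1.49-fold lower. IARS1, for isoleucine, went from 9.30 to 8.74, a difference of -0.56. RARS1, for arginine, was at 8.70 and 8.28, 1.34-fold lower. EPRS1, the fused enzyme for glutamate and proline, was at 9.30 and 8.91, 1.31-fold lower, and MARS1, for methionine, at 8.77 and 8.46. These 5 enzymes were thus between 1.24-fold and 1.49-fold lower, while the other members of the complex hardly differed. KARS1, the lysine enzyme of both compartments, stood at 8.57 and 8.54, and the sign of its difference turned with quantile normalisation. QARS1, for glutamine, was listed at 7.60 in both arrays, one of 190 measured genes with equal values. AIMP1, a scaffold protein of the complex, had a difference of -0.22. The other scaffold genes, AIMP2 and EEF1E1, were not analysed here.

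Outside the complex, 11 of 12 cytosolic genes were lower, against 50.5% of all measured genes, with a median of -0.26. SARS1, for serine, was the lowest of them, at 7.93 and 7.45, 1.40-fold lower. TARS1, for threonine, was at 7.96 and 7.62, and NARS1, for asparagine, at 10.66 and 10.32, both 1.26-fold lower. AARS1, the alanine enzyme, was at 9.81 and 9.51, a difference of -0.31. YARS1, for tyrosine, and GARS1, the glycine enzyme of both compartments, had differences of -0.27 and -0.26. HARS1, for histidine, was at 7.20 and 6.98.

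Smaller differences stood at the other end of the set. Cytosolic phenylalanyl-tRNA synthetase is built from an alpha and a beta subunit, and its genes differed unequally, with FARSB, the beta subunit, at 8.78 and 8.46, and FARSA, the alpha subunit, at 8.97 and 8.89. WARS1, the tryptophan enzyme, which interferon gamma induces, was at 7.71 and 7.61, a difference of -0.10. CARS1, for cysteine, was at 7.40 and 7.31. VARS1, for valine, was the 1 cytosolic synthetase with a higher value as deposited, at 7.27 and 7.30, though with median centring its difference was -0.06. VARS1 had 7 rows, 6 of them for alternate haplotypes of chromosome 6, and their differences ran from -0.05 to 0.04.

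The 12 cytosolic genes listed as ATF4 targets were all lower, where 50.5% of all measured genes were. Their median was -0.32 and their range from -0.57 to -0.09. The list was chosen with earlier results of these data known, so its contrast with the other genes is a description only. Of the 7 other cytosolic genes measured, 5 were lower, with a median of -0.08. After subtraction of the trend over signal level the medians were -0.25 for the ATF4-linked genes and -0.0075 for the others, and 12 of 12 and 4 of 7 were lower, where 48.9% of all measured genes were. RARS1 and FARSB, outside the ATF4 list, had differences of -0.43 and -0.32, and CARS1 and WARS1, on it, had -0.09 and -0.10, so the groups overlapped. Division by catalytic fold separated the enzymes less. The medians were -0.27 for cytosolic class I and -0.31 for cytosolic class II. For mitochondrial class I and class II they were -0.07 and -0.15. EPRS1 was in neither class list and does not enter these medians.

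Among the mitochondrial enzymes a few genes were much lower than the rest. IARS2, which charges isoleucine, was at 8.46 and 7.63, 1.78-fold lower. It ranked 33 of 11206 measured genes counted from the lowest difference. MARS2, for methionine, was at 7.13 and 6.50, 1.55-fold lower and rank 121. NARS2, for asparagine, was at 7.24 and 6.81, 1.35-fold lower. YARS2, for tyrosine, was at 6.70 and 6.28, 1.33-fold lower, and HARS2, for histidine, at 6.58 and 6.28, 1.23-fold lower.

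The other mitochondrial genes lay closer to 0. TARS2, for threonine, was at 8.34 and 8.16, a difference of -0.18, PARS2, for proline, at -0.15, and SARS2, for serine, at -0.14. Differences between -0.10 and 0 were found for AARS2 at -0.09, LARS2 at -0.08, WARS2 at -0.06, EARS2 at -0.05 and RARS2 at -0.04. CARS2 stood at 0.01, and the signs of RARS2 and CARS2 turned with the scaling. FARS2, the single-chain phenylalanine enzyme, at 7.11 and 7.22, was the highest of all synthetases with a difference of 0.10. VARS2 was below the floor in both arrays, at 5.73 and 5.72.

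The medians of the compartments differed by -0.17, cytosolic minus mitochondrial, but this gap depended on how it was computed. It was -0.048 with means in place of medians, -0.10 with quantile normalisation and -0.097 with the trend over signal removed. Differences between these arrays followed the signal level: over 10 equal bins of measured genes the median difference was 0.15 in the lowest bin and -0.07 in the highest. The fitted trend lay between -0.08 and -0.04 at the signals of the cytosolic genes and between -0.08 and 0.06 at those of the mitochondrial genes. With the floor raised to 6.94, the 75th percentile, 6 mitochondrial genes were left, their median was -0.31 and the gap was 0.000465, of opposite sign. Above that floor 59.9% of all genes were lower, beside 17 of 19 cytosolic and 5 of 6 mitochondrial synthetases. The order of the compartments thus changed with the settings, while both medians were below 0 in each setting listed under the processing.

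**Figure D3:**
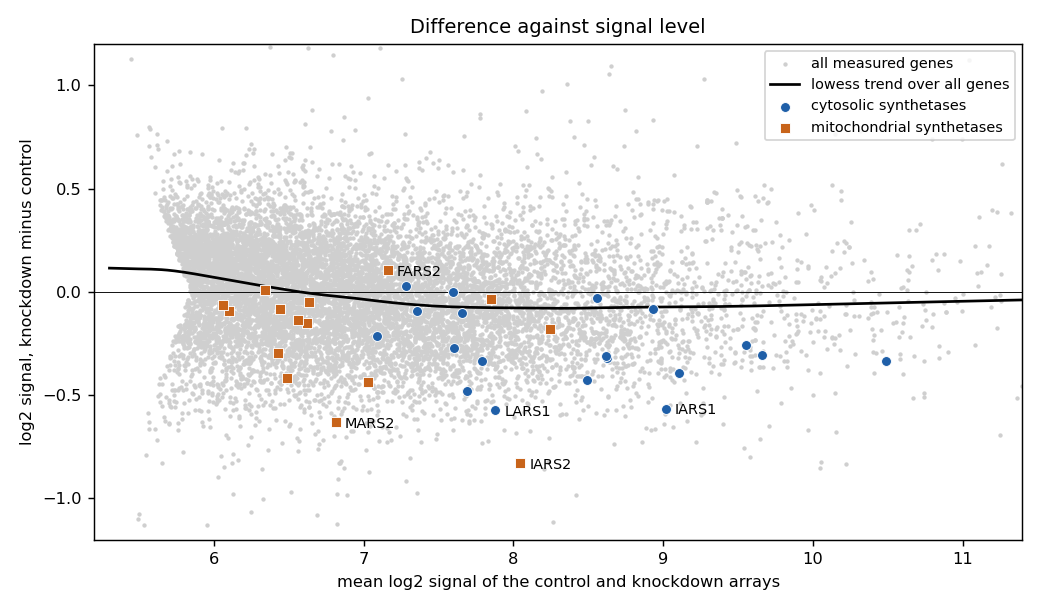
Log2 difference, knockdown minus control (y axis), against the mean log2 signal of the arrays (x axis), for measured genes (grey), cytosolic synthetases (circles) and mitochondrial synthetases (squares). The black line is the lowess trend over all genes, and a few genes beyond the axis limits are not drawn. Of the 34 synthetases 29 lie below the trend line, against 48.9% of all measured genes, with IARS2 and MARS2 lowest.

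For 16 combinations a cytosolic and a mitochondrial gene for the same amino acid could be set side by side, counting FARSA and FARSB each against FARS2 and EPRS1 against EARS2. In 15 of them both were measured, and in 12 both were lower as deposited. The cytosolic gene had the lower difference in 10 and the mitochondrial gene in 5, and with the trend removed the cytosolic gene was lower in 9. The combinations reuse the genes counted above, of which 17 of 19 and 13 of 15 were lower, against 50.5% of all measured genes. FARS2 enters with both FARSA and FARSB, and no share over other gene pairs was computed. The isoleucine enzymes had low differences in both compartments, at -0.56 for IARS1 and -0.83 for IARS2. Methionine, at -0.31 and -0.63, asparagine, at -0.33 and -0.43, and tyrosine, at -0.27 and -0.42, followed the same order. Leucine showed the widest gap the other way, with LARS1 at -0.57 and LARS2 at -0.08, and arginine was similar, with RARS1 at -0.43 and RARS2 at -0.04. HARS1 and HARS2 lie head to head on chromosome 5, and their promoter windows share 184 bases on opposite strands. Their differences were -0.21 and -0.30.

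**Figure D4:**
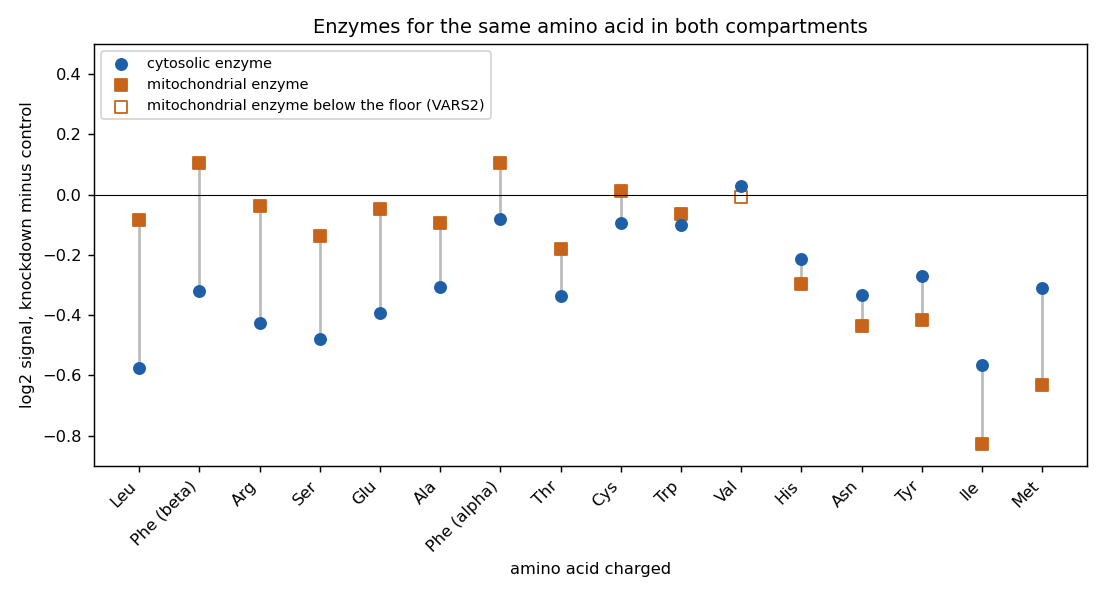
Log2 difference, knockdown minus control (y axis), of the cytosolic (circles) and mitochondrial (squares) enzyme for each amino acid (x axis), ordered by their gap. Leucine lies at the left, where the cytosolic gene is lower, and methionine at the right, where the mitochondrial gene is lower, with IARS1 and IARS2 both below -0.5.

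Other genes of the pathway were then compared. ATF4 itself was higher under knockdown, at 8.31 and 8.49. The list of ATF4 and eIF2 alpha signalling genes had a median of -0.13, and 11 of its 16 measured genes were lower, against 50.5% of all measured genes. After subtraction of the trend 10 of the 16 were, against 48.9%. ASNS, asparagine synthetase and a known ATF4 target, was lowest, at 7.30 and 6.78, 1.44-fold lower. EIF2AK2, the kinase PKR, which phosphorylates eIF2 alpha, stood at -0.37. PPP1R15A, a phosphatase subunit that reverses that mark, stood at 0.32, and its relative PPP1R15B at -0.29. Members of the list lay on both sides of 0. At 1.5-fold 0 of 16 differed, where 1.55% of all measured genes were lower and 1.08% higher. XPOT, the export receptor that carries transfer RNA out of the nucleus, was at 9.99 and 9.66, 1.26-fold lower.

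Of the cytosolic translation factors 13 of 16 measured were lower, beside 50.5% of all measured genes, with a median of -0.13. EIF2S1, which encodes eIF2 alpha, was 1.53-fold lower, from 7.83 to 7.21. EIF2S3, the gamma subunit, stood at -0.35, and GSPT1 and ETF1, the release factors that end translation, at -0.31 and -0.27. Of the mitochondrial translation factors 8 of 10 were lower, beside the same 50.5%, with a median of -0.20. GATC and QRSL1, subunits of the amidotransferase that makes glutaminyl-tRNA in mitochondria, stood at -0.39 and -0.38. The elongation factor GFM1 stood at -0.36 and the initiation factor MTIF2 at -0.34.

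Among the tRNA processing enzymes 9 of 12 were lower, where 50.5% of all measured genes were, with a median of -0.17. SSB, the La protein that binds new transcripts of RNA polymerase III, was at 8.36 and 7.82, 1.45-fold lower. ADAT1, a tRNA adenosine deaminase, stood at -0.33, and CLP1, an RNA kinase, and TSEN15, a subunit of the tRNA splicing endonuclease, both stood at -0.26. The 6 measured genes on the list for editing and selenocysteine were all lower by small amounts, against 50.5% of all measured genes. Their median was -0.14. After subtraction of the trend 4 of the 6 were lower, against 48.9%. The list included DTD1 and DTD2, which clear mischarged tRNA, at -0.20 and -0.16. The selenocysteine factor SECISBP2 stood at -0.20, and SEPHS1, also listed, at -0.13.

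**Figure D5:**
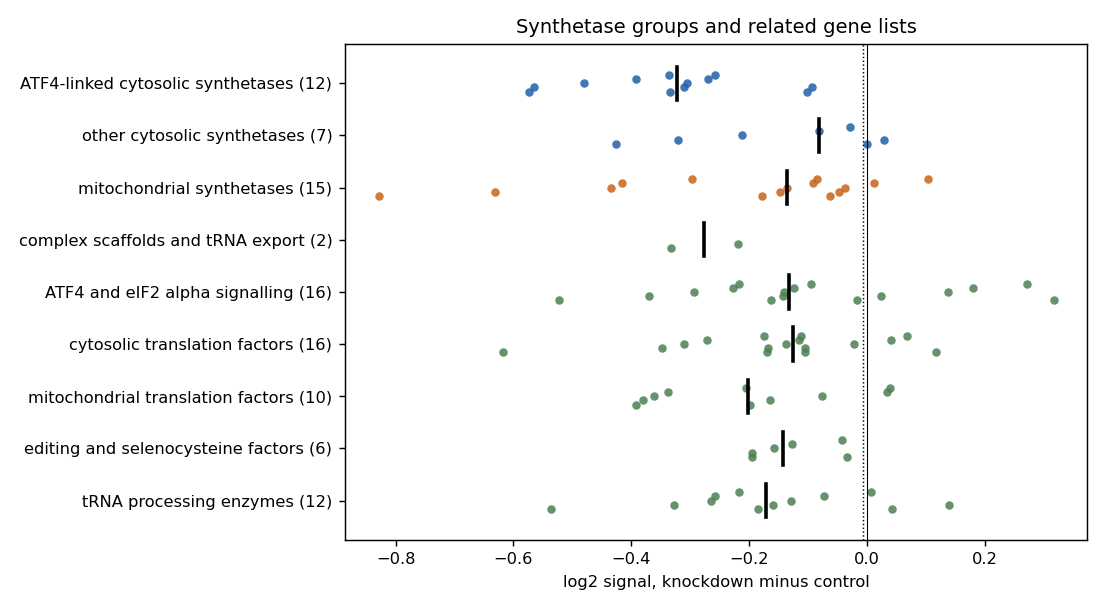
Log2 difference, knockdown minus control (x axis), of each measured gene (points) in the synthetase groups and related lists (y axis, number of genes in brackets), with the median of each as a bar and the median of all measured genes as a dotted line. All 12 ATF4-linked synthetases lie below 0, where 50.5% of all measured genes do. The ATF4 and eIF2 alpha list spans -0.52 to 0.32. The lists were chosen with earlier results of these data known.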

How the data were processed

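RNA of MHCC97H control and GP73 knockdown cells was hybridised to Affymetrix arrays, 1 per group. The deposited log2 signals came from Affymetrix Expression Console, as the submitters' processing notes record. The sources used here do not give its normalisation, probe summary or build. A log2 scale was inferred from the values, which ran from 0.36 to 13.2 and from 0.33 to 13.3. Precision is set by having 1 array per group.

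The platform annotation named the rows and gave 1 symbol for 23781 of 70523 rows, several for 1543 and none for 45199, and symbols were updated through the RefSeq table of GRCh38.p14. The row of highest mean signal stood for a gene with several rows. Measured genes were those whose higher signal was at or above the 50th percentile. Named were GOLM1, the synthetases, ATF4, the complex scaffolds and up to 4 measured genes of each related list with the largest absolute difference. One listed synthetase is not reported here. Members and lists were chosen with earlier results of these data known.

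With 1 array per group no test was made. Counts, medians and differences were recomputed with median centring, quantile normalisation, a lowess trend (fraction 0.2) removed, other floors, row means, list means, other thresholds and without GARS1 and KARS1. The functions were tested on simulated data. Python 3.11.15, numpy 2.4.6, pandas 2.3.3 and statsmodels 0.14.6 were used.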

Additional observations from a re-analysis of the deposited data

How the results depend on the processing

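No paired analysis was possible because each group held 1 array, and no array could be left out. With no replicate spread to judge by, values that differed by more than 1.5 times are given here. The median of the cytosolic synthetases stayed between -0.39 (median centring) and -0.23 (trend over signal removed). The mitochondrial median was -0.22 with median centring and also when a mean was taken. It was -0.31 under a floor at the 75th percentile, which kept 6 genes. Of these 5 were lower, against 59.9% of all genes above that floor. The cytosolic minus mitochondrial gap was -0.10 with quantile normalisation, -0.097 with the trend removed, -0.048 with means and 0.000465 with that floor. The number of synthetases at least 1.5-fold lower was 4 with median centring, where LARS1 and IARS1 joined IARS2 and MARS2. Median centring shifts all genes alike, and the share of all measured genes at 1.5-fold was not computed with it. As deposited, 0 synthetases were lower at 2-fold and 9 at 1.3-fold, against 0.134% and 7.64% of all measured genes. Differences of the 34 measured synthetases moved by at most 0.078 with quantile normalisation and 0.079 with the trend removed, and median centring lowered each by 0.086. Under all 4 scalings 28 were lower and FARS2 was higher, with no share of all measured genes computed for that count. The sign of QARS1, VARS1, KARS1, CARS2 and RARS2 depended on the scaling, and their place in the counts holds for the signals as deposited.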
